A study of Mus musculus with 18 samples.

Results

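Nascent transcription of 8 genes that restrain ERK signalling was followed in mouse embryonic stem cells with and without the Mediator subunit Med24. The genes are the Sprouty genes Spry1, Spry2 and Spry4, the Spred genes Spred1, Spred2 and Spred3, the membrane protein gene Il17rd (also called Sef), and Phlda1, which encodes a protein with a pleckstrin homology-like domain. They were taken by symbol from the 25897 gene symbols of the count table. All 8 were found, and all 8 were among the 14128 genes with enough counts to be tested.

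ERK is the last kinase of a relay that runs from growth factor receptors through the adaptors Grb2 and Sos, the GTPase Ras and the kinases Raf and MEK. Active ERK switches on genes whose products act back on the relay: Sprouty proteins bind adaptors and Raf, Spred proteins bring the Ras inactivator neurofibromin (Nf1) to the membrane, and Il17rd holds back signalling downstream of FGF receptors. In mouse embryonic stem cells FGF and ERK signalling is known for moving cells out of the naive state, towards primitive endoderm or towards epiblast-like fates. Mediator, the complex that Med24 belongs to, links transcription factors at enhancers to RNA polymerase II.

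All cells were E14tg2a embryonic stem cells of 129SV background in which the endogenous Med24 gene was disrupted, and which carried a FLAG-Med24 cDNA under a TET-regulated promoter together with a stably expressed cRAF-ErT2-T2A-RTTA cassette. 4-hydroxytamoxifen (4OHT) turns on the cRAF-ErT2 fusion and through it ERK. Knockout cells (labelled KO) were passaged without doxycycline, and rescued cells (labelled WT) were passaged with 500 nM doxycycline, so that Med24 in the rescued cells came from the cDNA and not from the disrupted gene. For 24 h before treatment both kept serum and LIF, with 250 nM of the FGF receptor inhibitor PD173074 in place of 2 µM of the GSK3 inhibitor Chir99021. The groups were knockout cells at 0, 2 and 8 h of 250 nM 4OHT, and rescued cells at the same times, with clones A, B and C as the 3 libraries of each group. RNA made during 15 min with 5 mM ethynyl uridine was captured and sequenced. Doxycycline was given to every rescued library and to no knockout library, so its own effects and those of Med24 cannot be told apart. Likewise, 4OHT was given to every 2 h and 8 h library and to no 0 h library, and all cells carried the fusion. Effects of 4OHT itself and of ERK therefore cannot be told apart.

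Library totals ran from 6691177 to 14541145 counts. Levels are CPM, counts scaled with TMM factors to a library of 1000000. A count of 0 leaves room for 3 counts, or 0.206 to 0.448 per 1000000 counts in these libraries before the TMM factors. Med24 stood at 34.0 to 49.2 CPM in the 9 knockout libraries, against 399.5 to 1775 CPM in the 9 rescued libraries, so no library went against its label. The rescued level was not constant: Med24 averaged 548, 1635 and 404 CPM at 0, 2 and 8 h in rescued cells, and its part in the results at each time was not tested. All 8 stem cell markers listed were detected. At 0, 2 and 8 h they summed to 2321 to 2349, 1826 to 2022 and 2016 to 2386 CPM in knockout cells, and to 2499 to 2519, 1631 to 1653 and 1904 to 1994 CPM in rescued cells. The 8 fibroblast markers, with Lum at 0 in every group, summed to 0.81 to 1.84, 6.72 to 8.27 and 5.44 to 7.97 CPM in knockout cells, and to 0.84 to 1.80, 7.29 to 9.43 and 3.37 to 4.55 CPM in rescued cells. The 6 mesoderm and neural markers, with Neurod1 at 0 in every group, summed to 6.44 to 7.47, 7.18 to 11.8 and 7.26 to 8.16 CPM in knockout cells, and to 9.61 to 10.8, 12.01 to 13.21 and 14.0 to 17.2 CPM in rescued cells. The 7 primitive endoderm markers summed, at 0, 2 and 8 h, to 56.0 to 69.1, 34.5 to 45.3 and 24.1 to 29.8 CPM in knockout cells, and to 31.8 to 32.0, 17.4 to 26.4 and 9.23 to 9.93 CPM in rescued cells. The 6 trophectoderm markers summed at those times to 115.6 to 116.2, 94.7 to 117.2 and 364.9 to 400.1 CPM in knockout cells, and to 86.9 to 91.2, 334.8 to 356.5 and 523.6 to 564.1 CPM in rescued cells. All 5 lists moved with time in rescued cells, and all but the fibroblast list stood apart between the genotypes at all 3 times. Their part in the results below was not tested, and in such bulk samples fewer cells of a type and less RNA per cell cannot be told apart. The 10 most abundant genes took 32.4% to 41.9% of counts in the knockout libraries of clone A at 2 h and clones B and C at 8 h, against 17.4% to 23.7% in the other 15 libraries. Results that change without these 3 libraries are given both ways. Scaling by library size alone, in place of TMM, moved the median log2 change of all genes to between -0.381 and 0.097 in the 9 pairwise comparisons, from between -0.049 and 0.034, and the share of calls that were higher to between 8.17% and 61.2%, from between 41.4% and 51.5%. For the 3 differences between responses it moved the median to between -0.297 and -0.134, from between -0.009 and 0.007, and the share that were higher to between 6.15% and 21.3%, from between 47.0% and 50%.

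Activation of ERK raised most of the 8 genes in both genotypes. At 2 h against 0 h, 6 of 8 rose and 1, Spry1, fell in knockout cells, where 31.5% of all genes tested rose and 35.2% fell. In rescued cells 7 of 8 rose and none fell at that time, where 32.4% of all genes rose and 33.8% fell, and the exception was Spred2. At 8 h against 0 h, 7 of 8 rose in knockout cells, all but Spred2 (all genes, 28.2% higher and 29.6% lower), and 8 of 8 rose in rescued cells (all genes, 30.7% higher and 31.3% lower). The median log2 fold change of the 8 genes at 2 h was 1.33 in knockout and 1.53 in rescued cells, and at 8 h 1.72 in knockout and 2.22 in rescued cells. Over all genes these medians lay at -0.05, -0.02, -0.02 and -0.01, a centre that TMM scaling holds near 0. A call is an adjusted p under 0.05 from edgeR's quasi-likelihood test, with Benjamini-Hochberg adjustment over all 14128 genes, and every fold change is given on the log2 scale ± SE with 3 libraries in each group.

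**Figure D1:**
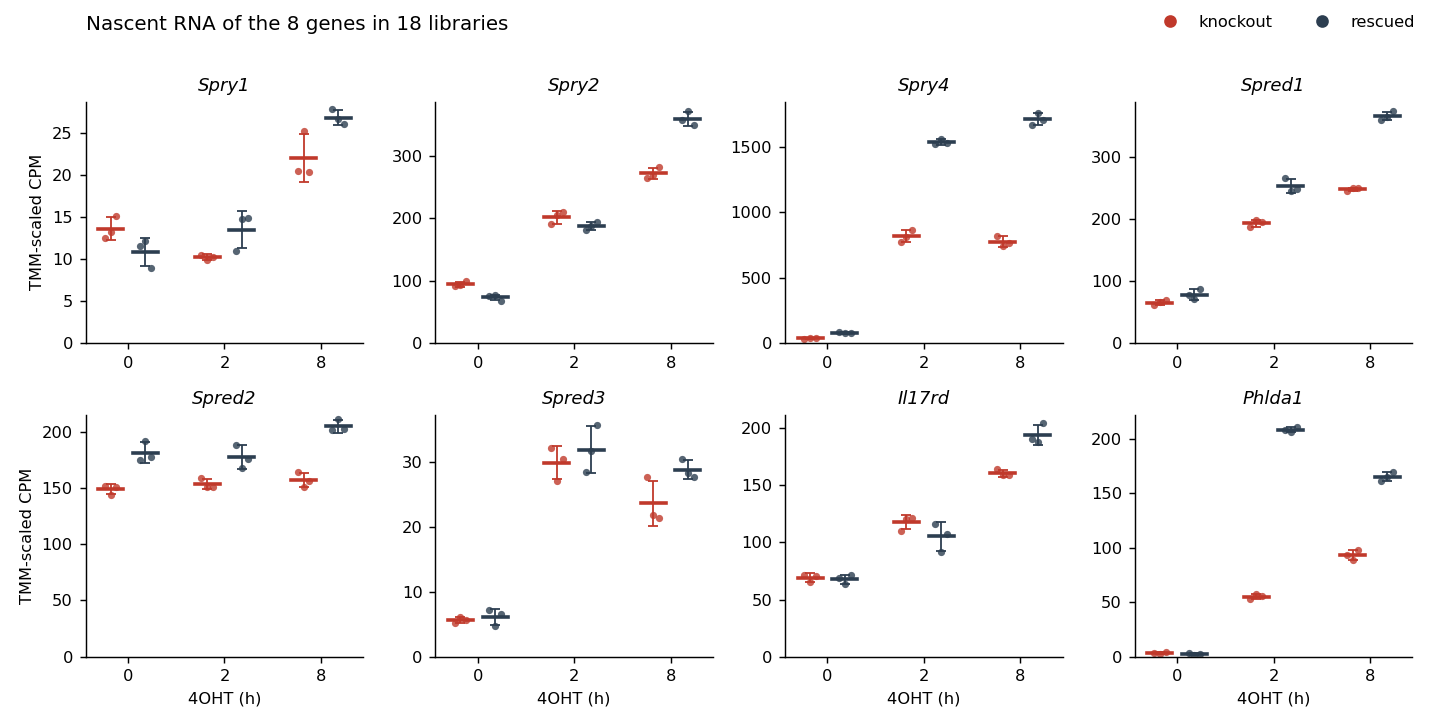
Nascent RNA level (TMM-scaled CPM, linear axes from 0) of each gene at 0, 2 and 8 h of 4OHT in knockout and rescued clones; points are single libraries, and horizontal lines and error bars are the mean ± SD of 3 clones. Spry4 is lower in knockout clones at every time, Phlda1 starts alike and parts at 2 h, Spry2 crosses over, and Spred2 stays nearly level.

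Spry4 encodes a Sprouty protein that blocks the path from growth factor receptors to Raf. At 0 h clones A, B and C of the knockout had 32.2, 38.4 and 42.1 CPM of Spry4, against 87.9, 73.9 and 74.2 CPM in the rescued clones, and values below keep this clone order. Its 2 h levels were 771.7, 813.2 and 864.7 CPM in knockout clones, against 1518, 1561 and 1532 CPM in rescued clones. Its 8 h levels were 819.2, 743.5 and 763 CPM in knockout clones, against 1669, 1759 and 1704 CPM in rescued clones. Knockout and rescued libraries did not overlap at any time, and the fitted knockout level was 0.477, 0.531 and 0.454 times the rescued level at 0, 2 and 8 h. The knockout over rescued log2 fold change was -1.07 ± 0.088 at 0 h (edgeR adjusted p = 3.34e-10), -0.91 ± 0.068 at 2 h (edgeR adjusted p = 2.86e-12) and -1.14 ± 0.068 at 8 h (edgeR adjusted p = 2.71e-14). In every one of the 3 clones and 3 times the difference had the same direction, from -1.45 (clone A, 0 h) to -0.82 (clone C, 0 h).

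The size of the Spry4 rise did not differ detectably between genotypes. At 2 h the gene rose 21.8-fold in knockout cells and 19.5-fold in rescued cells, and the difference between these responses was 0.16 on the log2 scale (95% interval -0.09 to 0.40, edgeR adjusted p = 0.408). At 8 h the difference from 0 h was 20.7-fold in knockout cells and 21.7-fold in rescued cells, with a difference between responses of -0.07 (95% interval -0.32 to 0.17, edgeR adjusted p = 0.715). These intervals hold no difference as large as the deficit of the knockout cells at 0 h. From 2 h to 8 h the knockout level did not change detectably (-0.07 ± 0.068, edgeR adjusted p = 0.365), while the rescued level rose by 0.15 ± 0.067 (edgeR adjusted p = 0.0459). That small rise lost its call with the clone as a block (edgeR adjusted p = 0.0557), with DESeq2's size factors (0.0625), with library size alone (0.143) and when any of 12 of the 18 libraries was left out, with an adjusted p of up to 0.155. Those 12 were clones B and C of the knockout 0 h and 2 h groups, clone B of the knockout 8 h group, clone C of the rescued 0 h group and all clones of the rescued 2 h and 8 h groups. The difference between the later responses (-0.23 ± 0.095, edgeR adjusted p = 0.144) gained a call without clone A of the knockout 8 h group (adjusted p = 0.038), with DESeq2 (0.048) and with limma-voom (0.0292).

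Spry2, a Sprouty gene whose protein binds Grb2 and the ubiquitin ligase Cbl, changed the order of the genotypes over time. It stood at 91.5, 92.9 and 99.1 CPM at 0 h in knockout clones, against 74.8, 76.2 and 67.8 CPM in rescued clones, and every knockout library was higher. At 2 h its levels of 190.1, 204.9 and 209.9 CPM in knockout clones overlapped those of 180.3, 188 and 194.1 CPM in rescued clones. Its 8 h levels were 264.5, 268.3 and 281.3 CPM in knockout clones, against 356.9, 371.3 and 348.8 CPM in rescued clones, and every knockout library was lower. The knockout over rescued log2 fold change was 0.37 ± 0.062 at 0 h (edgeR adjusted p = 6.92e-05), 0.11 ± 0.054 at 2 h (95% interval -0.01 to 0.23, edgeR adjusted p = 0.169) and -0.41 ± 0.053 at 8 h (edgeR adjusted p = 3.42e-07). The 2 h difference was called, at 0.15, without the 3 libraries dominated by their top 10 genes (adjusted p = 0.03), and the 0 h difference lost its call with library size alone (0.41, adjusted p = 0.069).

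The Spry2 response itself was smaller in knockout cells. By 8 h Spry2 had risen 2.87-fold in knockout cells and 4.93-fold in rescued cells, a difference of -0.78 ± 0.081 between the log2 responses (edgeR adjusted p = 3.39e-08). Most of that difference arose between 2 h and 8 h, where it was -0.51 ± 0.076 (edgeR adjusted p = 1.91e-05), with a further rise of 0.43 in knockout cells and 0.94 in rescued cells. Over the first 2 h the gene rose 2.14-fold in knockout cells and 2.57-fold in rescued cells, a difference of -0.27 ± 0.082 (edgeR adjusted p = 0.0281). It was not called without clone C of the knockout 0 h group (adjusted p = 0.099), clone A of the knockout 2 h group (0.0836), clone C of the rescued 0 h group (0.115), clone B (0.0574) or clone C (0.088) of the rescued 2 h group, or the 3 libraries above together (0.0547), nor with library size alone (0.301).

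Spry1, the third Sprouty gene measured here, was transcribed at a low level, with 69 to 426 counts in a library. Its 0 h levels were 12.5, 13.2 and 15.2 CPM in knockout clones, against 11.5, 12.1 and 9.01 CPM in rescued clones. Its 2 h levels were 10.5, 9.92 and 10.3 CPM in knockout clones, against 10.9, 14.8 and 14.9 CPM in rescued clones. Its 8 h levels were 20.5, 25.3 and 20.3 CPM in knockout clones, against 27.8, 26.7 and 26.1 CPM in rescued clones. The 8 h libraries were higher than every earlier library in both genotypes, a rise over 0 h of 0.69 ± 0.123 in knockout cells (edgeR adjusted p = 1.86e-05) and 1.32 ± 0.12 in rescued cells (edgeR adjusted p = 5.41e-11). At 2 h Spry1 fell by 0.41 ± 0.136 in knockout cells (edgeR adjusted p = 0.00911) and rose by 0.33 ± 0.137 in rescued cells (edgeR adjusted p = 0.0379), where the 0 h and 2 h libraries overlapped. Neither 2 h call was firm. The knockout one was lost without clone C at 0 h (adjusted p = 0.0567). The rescued one was lost without clone C at 0 h (0.241), clone B at 2 h (0.137) or clone C at 2 h (0.168), with upper-quartile factors (0.149), with library size alone (0.45) and in a fit on the 2 groups alone (0.0513). Library size alone also brought the knockout rise at 8 h to 0.33, without a call (adjusted p = 0.0818).

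The Spry1 responses differed between the genotypes by -0.74 ± 0.193 at 2 h (edgeR adjusted p = 0.00911) and by -0.63 ± 0.174 at 8 h (edgeR adjusted p = 0.012, or 0.0645 without clone C of the rescued 0 h group). The levels themselves were lower in knockout cells at 2 h, by -0.41 ± 0.138 (edgeR adjusted p = 0.0301), and at 8 h, by -0.30 ± 0.11 (edgeR adjusted p = 0.0372). The 2 h call was lost without clone B (adjusted p = 0.0905) or C (0.0696) of the knockout group or clone B (0.124) or C (0.15) of the rescued group, with DESeq2 (0.0587) and with library size alone (0.0544). The 8 h call was lost without clone A (0.176) or C (0.0913) of the knockout group or clone A (0.135), B (0.0648) or C (0.0505) of the rescued group, with DESeq2 (0.091), with upper-quartile factors (0.0612) and in a fit on the 2 groups alone (0.0504). The 0 h difference of 0.33 ± 0.136 (95% interval 0.04 to 0.63) was not called (edgeR adjusted p = 0.0953), although no libraries overlapped.

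Spred1 and Spred2 encode Spred proteins, which bind neurofibromin and through it keep Ras inactive. The region from 250 bases before to 50 after the RefSeq start of each is shown on its own strand, 5′ to 3′. These 2 genes were chosen because they answered ERK differently, as given below. Alone among the 6 genes with a listed promoter, they held a match to CGGAAG. Capitals mark matches on either strand to the ETS core CGGAAG, the letters recognised by ETS factors, a transcription factor family that ERK acts on, and, in Spred2, to the cyclic AMP response element half-site TGACG. The sequences are RefSeq's on GRCm38.p6, at chr2:117120821-117121120 on the plus strand for Spred1 and chr11:19924192-19924491 on the plus strand for Spred2.
Spred1: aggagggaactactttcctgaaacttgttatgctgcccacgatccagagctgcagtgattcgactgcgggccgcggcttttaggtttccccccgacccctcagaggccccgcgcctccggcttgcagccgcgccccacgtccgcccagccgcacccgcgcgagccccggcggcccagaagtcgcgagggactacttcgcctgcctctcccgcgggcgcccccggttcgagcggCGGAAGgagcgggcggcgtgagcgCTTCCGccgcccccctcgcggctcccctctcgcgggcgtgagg
Spred2: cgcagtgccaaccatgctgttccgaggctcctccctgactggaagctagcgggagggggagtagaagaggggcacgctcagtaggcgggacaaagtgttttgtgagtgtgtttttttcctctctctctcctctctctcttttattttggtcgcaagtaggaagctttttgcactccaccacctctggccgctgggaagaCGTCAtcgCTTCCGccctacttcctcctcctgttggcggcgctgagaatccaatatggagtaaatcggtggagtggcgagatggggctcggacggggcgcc
CGGAAG stands at -17 and, reversed, at +8 from the start in Spred1, and reversed at -43 in Spred2, with the reversed TGACG at -51. CGGAAG occurs in 16.9% of the 32851 RefSeq promoters of the same length, and TGACG in 20.8%. No match to CGGAAG was found in the windows of Spry1, Spry2, Spred3 and Il17rd. Counting either strand, each of these windows does hold GGAA, the inner letters of CGGAAG, which were not searched for. The Spry2 and Il17rd windows are shown further below. None of the 6 windows held the AP-1 site TGANTCA (7.81% of promoters) or a CArG box (1.63%). A match describes the letters of the window and shows no binding. Matches also depend on the start site used. The Spred3 window (chr7:29168598-29168897, minus strand) lies inside the gene span given further below, and the Spred1 window ends before the span of Spred1. Windows at other start sites were not searched.

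Spred1 rose strongly in both genotypes and was lower in knockout cells throughout. It stood at 61.0, 66.1 and 69.1 CPM at 0 h in knockout clones, against 77.2, 70.6 and 87.3 CPM in rescued clones. At 2 h its levels were 187, 198.6 and 195.3 CPM in knockout clones, against 266.6, 246.1 and 249.1 CPM in rescued clones. Levels at 8 h were 245.6, 250.3 and 250.1 CPM in knockout clones, against 360.5, 366 and 374.7 CPM in rescued clones. The genotypes did not overlap at any time, and the knockout level at 8 h overlapped the rescued level at 2 h. The knockout over rescued log2 fold change was -0.26 ± 0.068 at 0 h (edgeR adjusted p = 0.00707), -0.39 ± 0.057 at 2 h (edgeR adjusted p = 3.33e-06) and -0.56 ± 0.056 at 8 h (edgeR adjusted p = 2.37e-09). The 0 h call was lost without clone A of the knockout group (adjusted p = 0.0514) or clone C of the rescued group (0.0818), and with library size alone (0.465).

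By 2 h Spred1 had risen 2.96-fold in knockout cells and 3.23-fold in rescued cells, responses that did not differ detectably (-0.13 ± 0.089, 95% interval -0.32 to 0.07, edgeR adjusted p = 0.408). By 8 h it had risen 3.80-fold in knockout cells and 4.67-fold in rescued cells, a difference of -0.30 ± 0.088 between the log2 responses (edgeR adjusted p = 0.0186). That call was lost without clone B (adjusted p = 0.0529) or C (0.0764) of the knockout 0 h group or clone B of the rescued 0 h group (0.0827).

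Spred2, in contrast to Spred1, hardly answered ERK. Its levels at 0 h were 151.8, 144 and 150.8 CPM in knockout clones, against 175.1, 191.6 and 177.5 CPM in rescued clones. At 2 h they were 158.5, 150.7 and 151.2 CPM in knockout clones, against 188.4, 168 and 175.3 CPM in rescued clones. Levels at 8 h were 163.7, 151.1 and 156 CPM in knockout clones, against 201, 211.1 and 202.1 CPM in rescued clones. The knockout libraries of all 3 times overlapped each other, and all 9 were lower than every rescued library. The only called responses were in rescued cells, where Spred2 at 8 h was higher than at 0 h by 0.17 ± 0.053 (edgeR adjusted p = 0.00501) and than at 2 h by 0.21 ± 0.053 (edgeR adjusted p = 0.00111). No response differed between the genotypes by the test of that difference (edgeR adjusted p = 0.588, 0.44 and 0.183). The knockout over rescued log2 fold change was -0.28 ± 0.054 at 0 h (edgeR adjusted p = 3.94e-04), -0.21 ± 0.054 at 2 h (edgeR adjusted p = 0.00419) and -0.38 ± 0.054 at 8 h (edgeR adjusted p = 1.68e-06). With library size alone the 0 h and 2 h differences, of -0.25 and -0.30, were not called (adjusted p = 0.359 and 0.118), nor was the rescued rise at 8 h against 0 h (0.516, or 0.0894 with upper-quartile factors). Upper-quartile factors also gave a called fall of -0.13 at 2 h against 0 h in rescued cells (0.0334), and library size alone turned the knockout change at 8 h against 0 h to -0.28, with a call (0.0479).

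Spred3, the third Spred gene, was low, with 34 to 465 counts in a library. It stood at 5.17, 6.16 and 5.71 CPM at 0 h in knockout clones, against 7.13, 4.73 and 6.60 CPM in rescued clones. At 2 h its levels were 32.1, 27.0 and 30.5 CPM in knockout clones, against 28.4, 31.7 and 35.6 CPM in rescued clones. Levels at 8 h were 27.6, 21.8 and 21.4 CPM in knockout clones, against 30.4, 28.3 and 27.7 CPM in rescued clones. Every later library was above every 0 h library, and the genotypes overlapped at 0 h and 2 h. The 2 h rise was 5.21-fold in knockout cells and 5.14-fold in rescued cells, a difference of 0.02 on the log2 scale with a wide interval of -0.43 to 0.47 (edgeR adjusted p = 0.97).

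No difference in Spred3 level between knockout and rescued cells was called. The log2 fold change was -0.12 (95% interval -0.52 to 0.28) at 0 h, -0.10 (-0.33 to 0.12) at 2 h and -0.26 ± 0.107 (-0.50 to -0.03, edgeR adjusted p = 0.0619) at 8 h. Without clone A of the knockout 8 h group the last became -0.42 with a call (adjusted p = 0.00675), it was also called without the low-count filter (0.028) and with library size alone (-0.51, 0.0135), and with that clone as the only knockout 8 h library, after leaving out the 3 libraries named above, it was -0.07. From 2 h to 8 h Spred3 fell by 0.30 ± 0.11 in knockout cells (edgeR adjusted p = 0.0209), a call lost without clone A (adjusted p = 0.0755) or C (0.0624) at 2 h, clone B (0.101) or C (0.0776) at 8 h, or the 3 libraries together (0.716), with library size alone (0.0647) and with upper-quartile factors (0.0541). The span of Spred3 shares 202 bases with that of Ggn on the opposite strand, a gene with 24 to 104 counts. The sources used here do not say how strand was treated in counting, so reads from the shared part cannot be told apart.

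Il17rd, the gene of a membrane protein that restrains FGF and ERK signalling, rose in steps. It stood at 71.7, 65.1 and 70.9 CPM at 0 h in knockout clones, against 68.5, 63.5 and 71.6 CPM in rescued clones. At 2 h its levels were 110.4, 120.6 and 121.7 CPM in knockout clones, against 116.5, 91.7 and 107.3 CPM in rescued clones. Levels at 8 h were 164.2, 158.8 and 158.5 CPM in knockout clones, against 190.4, 187.5 and 204.1 CPM in rescued clones. The genotypes overlapped at 0 h and 2 h, and at 8 h every knockout library was lower. The knockout over rescued log2 fold change was 0.03 ± 0.073 at 0 h (95% interval -0.13 to 0.19, edgeR adjusted p = 0.86), 0.16 ± 0.067 at 2 h (edgeR adjusted p = 0.0759) and -0.27 ± 0.063 at 8 h (edgeR adjusted p = 0.00113). The 2 h difference was called without clone A of the knockout 2 h group (adjusted p = 0.0479), without clone A of the rescued 2 h group (0.0123), and, at 0.21, without the 3 libraries dominated by their top 10 genes (0.0158).

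The Il17rd responses parted after 2 h. Between 2 h and 8 h the gene rose 1.36-fold in knockout cells and 1.84-fold in rescued cells, a difference of -0.43 ± 0.091 between the log2 responses (edgeR adjusted p = 0.00173, or 0.0611 with library size alone). Over the first 2 h the rise was 1.70-fold in knockout cells and 1.55-fold in rescued cells, with no called difference (0.14, 95% interval -0.08 to 0.35, edgeR adjusted p = 0.416). Over the whole 8 h it was 2.32-fold in knockout cells and 2.85-fold in rescued cells, a difference of -0.30 ± 0.096 (edgeR adjusted p = 0.0325). That call was lost without any of clones A (adjusted p = 0.0946) and C (0.0825) of the knockout 0 h group, clone B of the knockout 8 h group (0.0674), clones A (0.0553) and B (0.105) of the rescued 0 h group and clones A (0.0524) and C (0.0865) of the rescued 8 h group, without the 3 libraries together (0.0777) and with DESeq2 (0.0548).

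The promoter windows of Spry2 (chr14:105896770-105897069, minus strand) and Il17rd (chr14:27038751-27039050, plus strand) are set beside each other because both genes rose less in knockout cells between 2 h and 8 h. They are RefSeq's, on GRCm38.p6, 5′ to 3′ on the strand of each gene, and stand in lower case throughout because none of the 4 motifs was matched.
Spry2: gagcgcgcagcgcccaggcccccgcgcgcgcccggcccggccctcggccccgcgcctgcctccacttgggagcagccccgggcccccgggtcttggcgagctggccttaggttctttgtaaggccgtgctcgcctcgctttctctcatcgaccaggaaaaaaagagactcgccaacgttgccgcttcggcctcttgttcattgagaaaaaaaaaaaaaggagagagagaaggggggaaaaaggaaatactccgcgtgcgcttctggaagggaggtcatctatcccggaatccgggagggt
Il17rd: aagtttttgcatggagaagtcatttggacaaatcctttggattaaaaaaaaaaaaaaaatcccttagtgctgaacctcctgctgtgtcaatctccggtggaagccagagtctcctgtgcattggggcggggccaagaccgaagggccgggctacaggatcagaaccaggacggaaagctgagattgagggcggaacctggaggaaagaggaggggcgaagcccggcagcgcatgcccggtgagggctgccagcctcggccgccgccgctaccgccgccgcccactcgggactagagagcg
The share of G and C bases is 62.7% in the Spry2 window and 58.3% in the Il17rd window, against 72.3% for Spred1 and 57.0% for Spred2.

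Phlda1, an immediate target of growth factor signalling whose protein binds membrane lipids, showed the widest gap between knockout and rescued cells among the 8 genes at 2 h. At 0 h and 8 h the gap of Spry4 was wider. At 0 h it was scarcely transcribed, at 3.68, 2.93 and 4.26 CPM in knockout clones, against 3.63, 1.53 and 2.76 CPM in rescued clones, with 11 to 35 counts a library. Its 2 h levels were 53.1, 57.3 and 55.4 CPM in knockout clones, against 208.3, 206.1 and 211.2 CPM in rescued clones. Its 8 h levels were 93.4, 89.0 and 98.3 CPM in knockout clones, against 161.1, 165 and 169.3 CPM in rescued clones. The genotypes overlapped at 0 h and were far apart at 2 h, and at 8 h every knockout library was still lower.

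Phlda1 rose 15.4-fold in knockout cells and 77.4-fold in rescued cells by 2 h. The log2 changes were 3.95 ± 0.114 in knockout cells (edgeR adjusted p = 3.68e-23) and 6.27 ± 0.104 in rescued cells (edgeR adjusted p = 2.52e-29). The difference between these responses, -2.33 ± 0.228 (edgeR adjusted p = 6.58e-09), ranked 40 from the lowest among 14128 genes. After 2 h the directions were opposite. Between 2 h and 8 h Phlda1 rose by 0.75 ± 0.068 in knockout cells (edgeR adjusted p = 5.13e-11) and fell by 0.34 ± 0.055 in rescued cells (edgeR adjusted p = 3.50e-06, or 0.11 with library size alone). The difference between these responses was 1.09 ± 0.087 (edgeR adjusted p = 2.56e-10). The knockout over rescued log2 fold change was 0.42 ± 0.218 at 0 h (95% interval -0.06 to 0.89, edgeR adjusted p = 0.222), -1.91 ± 0.062 at 2 h (edgeR adjusted p = 1.16e-20) and -0.82 ± 0.06 at 8 h (edgeR adjusted p = 2.73e-12). Clone by clone the 2 h difference was -1.97, -1.85 and -1.93 in A, B and C. The whole 8 h response was 26.0-fold in knockout cells and 61.2-fold in rescued cells, a difference of -1.24 ± 0.226 (edgeR adjusted p = 2.31e-04).

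**Figure D2:**
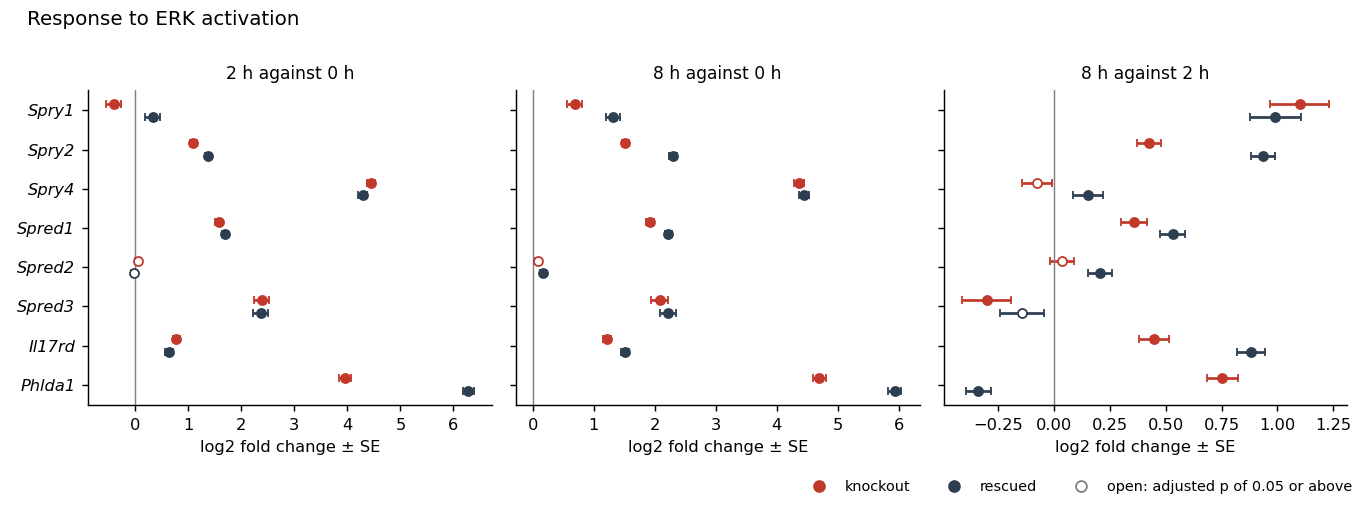
Log2 fold change of each gene between times of 4OHT, in knockout and rescued cells, from the edgeR fit with 3 libraries in each group; bars are ± SE, and open points missed the threshold of 0.05. Phlda1 shows the largest gap at 2 h against 0 h (3.95 in knockout, 6.27 in rescued cells), while the Spry4 values lie close together (4.44 in knockout, 4.29 in rescued cells).

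Set against rescued cells, knockout cells had more genes of the group at a lower level as time went on. At 0 h, 1 of the 8 was higher (Spry2) and 3 were lower (Spry4, Spred1 and Spred2), where 6.81% of all genes were higher and 9.64% lower. At 2 h none was higher and 5 were lower (Spry1, Spry4, Spred1, Spred2 and Phlda1), where 10.8% of all genes were higher and 12.9% lower. At 8 h none was higher and 7 were lower, all but Spred3, where 14.5% of all genes were higher and 17.1% lower. The median log2 fold change of the 8 genes was -0.05, -0.30 and -0.39 at 0, 2 and 8 h, and that of all genes was 0.01 or closer to 0 each time. TMM scaling holds the centre of all genes near 0. Scaled by library size alone, the median of all genes was 0.042, -0.091 and -0.257 at these times. With library size alone as the scale, 1 gene was called at 0 h, Spry4, and 3 at 2 h, Spry4, Spred1 and Phlda1. The knockout and rescued libraries did not overlap for 8 of 8 genes at 8 h, all lower in knockout cells, a pattern of 22.1% of all genes.

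**Figure D3:**
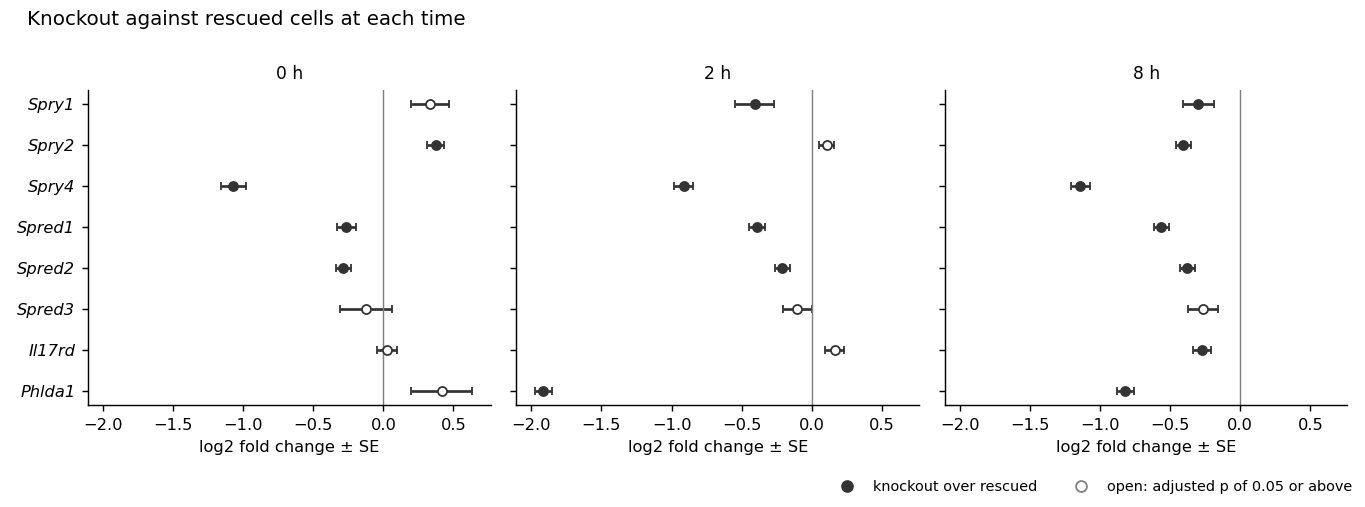
Log2 fold change of knockout over rescued cells for each gene at 0, 2 and 8 h of 4OHT, from the edgeR fit; bars are ± SE from 3 libraries in each group, open points missed the threshold of 0.05, and the vertical line marks no difference. Phlda1 at 2 h lies at -1.91, Spry4 lies near -1 at every time, and Spry2 lies at 0.37 at 0 h and at -0.41 at 8 h.

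The 8 genes also differed in how the genotypes moved over time. Between 0 h and 2 h the response of 3 genes was smaller or of opposite direction in knockout cells (Spry1, Spry2 and Phlda1; 6.60% of all genes had a called difference in that direction), and between 0 h and 8 h that of 5 (Spry1, Spry2, Spred1, Il17rd and Phlda1; 8.88% of all genes, with 7.88% in the other direction). Between 2 h and 8 h the knockout response was below the rescued one for Spry2 and Il17rd (4.61% of all genes) and above it for Phlda1 (4.38% of all genes). From 2 h to 8 h within a genotype, 5 genes rose and 1 fell in knockout cells (29.4% and 27.7% of all genes), and 6 rose and 1 fell in rescued cells (30.7% and 30.2% of all genes). With library size alone the rise of Spred1 in knockout cells, 0.36, became 0.27 without a call (adjusted p = 0.0765). The gene that fell was Spred3 in knockout cells and Phlda1 in rescued cells. The differences called without exception in every fit that left out a single library were those of Phlda1 at all 3 intervals, Spry1 at 2 h against 0 h, Spry2 at 8 h against 0 h and 2 h, and Il17rd at 8 h against 2 h.

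The genes of the signalling relay that these proteins bind or act on moved by smaller amounts at the median. Of 30 such partner genes 29 were tested, all but Cav1, which had at most 6 counts in a library. At 2 h against 0 h, 21 rose and 2 fell in knockout cells, and 20 rose and 4 fell in rescued cells, with median log2 changes of 0.38 in knockout and 0.35 in rescued cells. Among all genes, 31.5% rose and 35.2% fell in knockout cells, and 32.4% rose and 33.8% fell in rescued cells. Siah2, a ubiquitin ligase gene, rose by 1.73 in knockout and 1.98 in rescued cells, and Braf, a Raf kinase gene, rose by 1.62 to 453.4 CPM in knockout and by 1.08 to 346.6 CPM in rescued cells. Kit, which encodes the receptor of stem cell factor, fell by 1.61 in knockout and by 1.33 in rescued cells. Knockout over rescued, 5 partner genes were lower and none higher at 0 h, 5 were lower and 5 higher at 2 h, and 8 were lower and 3 higher at 8 h, with medians of -0.07, -0.01 and -0.09. Of all genes, 9.64%, 12.9% and 17.1% were lower and 6.81%, 10.8% and 14.5% higher at these times. At 8 h Kit was lower by -0.95 ± 0.072 (40.0 CPM in knockout cells, 77.2 CPM in rescued cells), the kinase gene Tesk1 lower by -0.80 ± 0.198 and the MEK gene Map2k2 lower by -0.29 ± 0.068.

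Most of the other genes listed as reporters of ERK activity were lower in knockout cells at 2 h and 8 h. Of 15 listed, 14 were tested, all but Flrt3, which had 0 counts in every library. At 2 h against 0 h, 11 rose and 2 fell in knockout cells, and 12 rose and 2 fell in rescued cells, with median log2 changes of 1.71 in knockout and 2.49 in rescued cells. Among all genes, 31.5% rose and 35.2% fell in knockout cells, and 32.4% rose and 33.8% fell in rescued cells. The 2 that fell were Ccnd1 and Epha4, with changes of -1.506 and -1.352 in knockout cells and of -1.645 and -1.756 in rescued cells. Egr1, an immediate early transcription factor gene, rose by 7.31 ± 0.126 in knockout cells (16.45 to 2610 CPM) and by 6.31 ± 0.116 in rescued cells (44.6 to 3525 CPM). Its level was lower in knockout cells at 0 h (-1.44 ± 0.13, edgeR adjusted p = 2.12e-09) and at 2 h (-0.43 ± 0.088, edgeR adjusted p = 3.29e-04). Fos, another such gene, rose by 4.33 ± 0.143 in knockout cells (2.82 to 55.6 CPM) and by 5.30 ± 0.123 in rescued cells (3.89 to 153 CPM). Knockout over rescued, 4 were lower and 1 higher at 0 h, 10 lower and 1 higher at 2 h, and 11 lower and 3 higher at 8 h, with medians of -0.13, -0.46 and -0.57. Of all genes, 9.64%, 12.9% and 17.1% were lower and 6.81%, 10.8% and 14.5% higher at these times. At 2 h the phosphatase genes Dusp2 and Dusp5 were lower by -1.67 ± 0.124 and -1.57 ± 0.06, and the AP-1 genes Fos and Fosl1 by -1.46 ± 0.079 and -1.33 ± 0.077. Dusp5 averaged 114.4 CPM at that time in knockout cells and 340 CPM in rescued cells. At 8 h the cyclin gene Ccnd1 was lower by -1.72 ± 0.117 (8.71 CPM in knockout cells, 28.2 CPM in rescued cells). Against 0 h, Ccnd1 at 8 h was lower in knockout cells (-1.48 ± 0.122, edgeR adjusted p = 7.67e-12). In rescued cells that change was not called (-0.17 ± 0.09, edgeR adjusted p = 0.104).

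**Figure D4:**
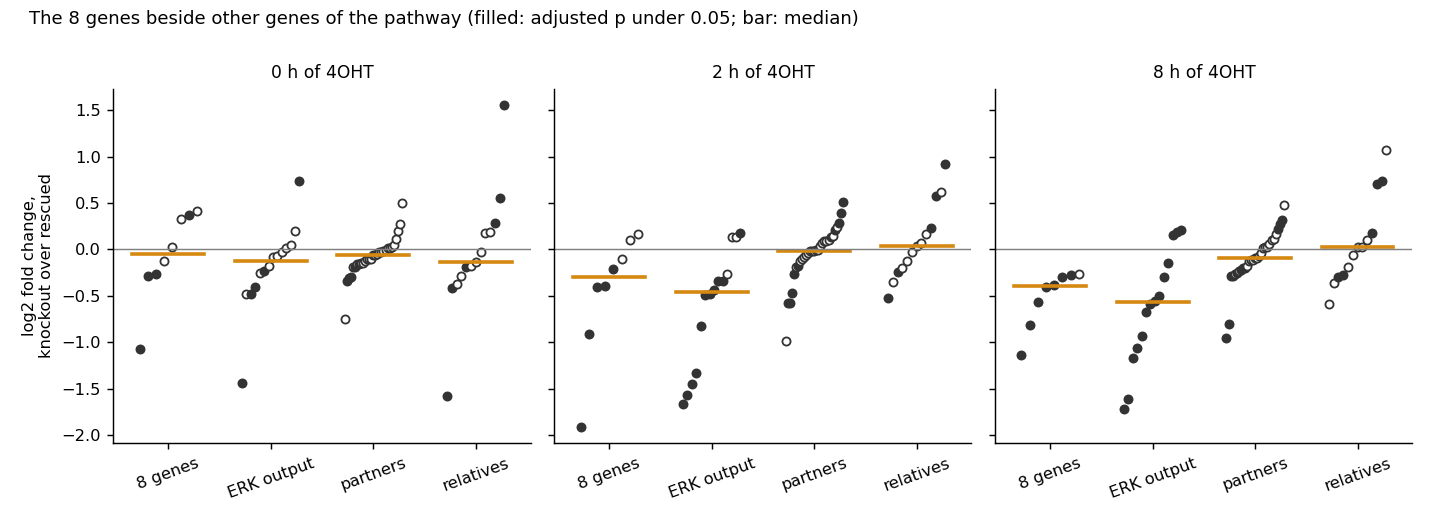
Log2 fold change of knockout over rescued cells at 0, 2 and 8 h, from the edgeR fit. The lists are the 8 feedback genes, 14 other genes listed as reporters of ERK activity, 29 partner genes and 13 genes listed as relatives. Each point is a gene, open where it missed the threshold of 0.05, and the bar is the list's median. The medians at 8 h are -0.39 for the feedback genes, -0.57 for the other ERK reporters, -0.09 for the partners and 0.03 for the relatives.

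A further list, most of it related to the 8 genes by family or by a binding domain, was about as often higher as lower in knockout cells. Of 16 listed, 13 were tested, and Spry3, Il17rb and Flrt1 had at most 9, 5 and 0 counts in a library. Knockout over rescued, 3 were lower and 3 higher at 0 h, and at 2 h and 8 h 2 were lower and 3 higher, with medians of -0.14, 0.04 and 0.03. Of all genes, 9.64%, 12.9% and 17.1% were lower and 6.81%, 10.8% and 14.5% higher at 0, 2 and 8 h. Phlda2, the gene of a related pleckstrin homology-like protein, rose at 2 h by 5.10 ± 0.261 in knockout cells (0.92 to 32.6 CPM) and by 3.55 ± 0.216 in rescued cells (2.81 to 33.1 CPM). Its 0 h level was low, and lower in knockout cells (-1.58 ± 0.439, edgeR adjusted p = 0.0132). The 2 h levels did not differ detectably (-0.03 ± 0.139, edgeR adjusted p = 0.922). At 8 h it was higher in knockout cells by 0.71 ± 0.189 (16.5 CPM in knockout cells, 9.42 CPM in rescued cells). Phlda1 was lower in knockout cells at 2 h and 8 h. Vasp, which encodes an actin regulator with the EVH1 domain that Spred proteins also carry, rose at 2 h by 1.50 ± 0.06 in knockout cells and by 2.20 ± 0.061 in rescued cells. Flrt2, the gene of a membrane protein outside these families, was higher in knockout cells by 0.56, 0.92 and 0.73 at 0, 2 and 8 h.

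Over the 18 libraries the levels of the 8 genes correlated with each other to very different degrees, as described by Pearson's r of log2 CPM across groups that share the same time course. The highest value was 0.977, between Spry4 and Spred1, and Spry2 and Il17rd reached 0.968. The lowest was 0.215, between Spred2 and Spred3. Spry1 reached at most 0.735, with Il17rd. Among 10421 genes with a mean of at least 5 CPM, those most like Spry4 were Pla2g7 (r = 0.990) and Wsb2 (0.989), and those most like Phlda1 were Plaur (0.995) and Foxp4 (0.994). For Spred1 they were Hs3st3b1 (0.995) and Etv4 (0.988), for Spry2 Hmga2 (0.988) and Dusp6 (0.984), for Spred3 Exosc10 (0.987) and Wsb2 (0.986), and for Il17rd Ptpn3 (0.982) and Spindoc (0.979). Spry1 was most like Podxl (0.964) and Nos3 (0.955), and Spred2 most like Prkce (0.914) and Gsr (0.905).

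The genes differ in build as well as in response. On GRCm38 in GENCODE release M21, Phlda1 spans 2360 bases (chr10:111506286-111508645, plus strand), Spry1 4652 (chr3:37639947-37644598, plus) and Spry2 4873 (chr14:105891947-105896819, minus). Spred3 spans 11583 bases (chr7:29158829-29170411, minus), Spry4 15169, Spred1 60906 (chr2:117121374-117182279, plus), Il17rd 68346 (chr14:27038941-27107286, plus) and Spred2 99652 (chr11:19924375-20024026, plus). The annotated exons cover 2205 bases of Phlda1 and 4619 bases of Spred2. Because it is not stated whether intron reads were counted, no levels are compared between genes per length. Spry1 overlaps the predicted gene Gm42922 on the opposite strand over 710 bases, and that gene had 0 to 3 counts in a library. Phlda1 overlaps the lincRNA gene Gm28592 on the opposite strand over 1088 bases, and Spry4 overlaps the miscellaneous RNA genes Gm27369 over 71 and Gm27804 over 119 bases. None of these 3 genes was analysed here, and with strand treatment unstated their reads and those of Phlda1 and Spry4 cannot be told apart.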

How the data were processed

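Nascent RNA, labelled with ethynyl uridine and captured by click chemistry, was counted in 18 libraries (6 groups of 3 clones). The authors deposited a table of whole-number read counts per gene symbol, not normalized; STAR, featureCounts, DESeq and mm10 are named in the submitters' processing notes. For versions, annotation, strand and introns the sources used here give nothing. With no spike-in named, a change is relative to a library's other genes.

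Counts were fitted in edgeR 4.0.16 (R 4.3.3) with TMM scaling, filterByExpr and 6 group means, and 12 contrasts were tested by quasi-likelihood with Benjamini-Hochberg adjustment at 0.05 over 14128 genes. CPM are TMM-scaled, the SE is the log2 change over the square root of F, and 95% intervals take 12 residual degrees of freedom. Intervals and floors cover counting and clone spread only, since reads carry no molecular identifiers. Depth ran from 6691177 to 14541145 counts. Alternatives were no filter, library size alone, other scalings, DESeq2 1.42.0, limma 3.58.1 (voom), fits on fewer groups, a clone block, and each library left out. Symbols were looked up in GENCODE M21 (98.7% found) and RefSeq promoters by symbol (6 of 8 members; Spry4 and Phlda1 not listed).

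The 8 genes and all lists were chosen with earlier results of these data known. The named genes were Med24, the 8 genes, up to 4 called genes with the largest absolute change from each list where described (1 is not reported here), and the 2 genes most like each of the 8. The motifs were ETS (searched only as CGGAAG), AP-1, CRE half-site and CArG box, on both strands.

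The labels give the clones the letters A, B and C in every group, with and without doxycycline, so the letters pair the libraries. Deviations from group means of libraries of the same letter correlated across genes with a mean r of 0.0164 (from -0.101 to 0.0826). Between letters the mean r was -0.00817. Because deviations cancel out within a group, that value largely follows from the first and adds no evidence of pairing. For 15 of the 18 libraries, r averaged over the libraries of each letter in the other groups was highest for their own letter. Whether clones were cultured or processed apart is not stated. The p-values measure the spread between the libraries of a group, which come from different clones. Without the clone block, libraries of the same clone in different groups are treated as independent. No pair of replicates agreed within sampling noise (lowest chi-square per degree of freedom 1.516).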

Additional observations from a re-analysis of the deposited data

Results flagged for a closer look

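For 11 responses the test of the difference between knockout and rescued cells was itself called (edgeR interaction, knockout minus rescued log2 change, 3 libraries in each group). Phlda1 differed by -2.33 at 2 h against 0 h, by -1.24 at 8 h against 0 h and by 1.09 at 8 h against 2 h. Spry2 differed by -0.27, -0.78 and -0.51 over the same intervals. Spry1 differed by -0.74 at 2 h and by -0.63 at 8 h against 0 h. Il17rd differed by -0.30 at 8 h against 0 h and by -0.43 at 8 h against 2 h, and Spred1 by -0.30 at 8 h against 0 h.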

How the results depend on the processing

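Over 27 alternative settings, 2814 of 2916 values for the 8 genes and Med24 kept their side of the threshold (26 of them, uncalled, with the sign turned), 88 lost and 11 gained a call, and 3 turned direction. With library size alone as the scale, 1 gene was called for knockout over rescued at 0 h in place of 4 and 3 at 2 h in place of 5. That scale also turned Med24 in knockout cells to -0.035 at 2 h and -0.332 at 8 h against 0 h, from 0.251 and 0.026, and Spred2 in knockout cells at 8 h to -0.284 from 0.08; it shifts all genes alike by construction. With each library left out in turn, the number of genes with a different 8 h response ranged from 3 to 5. Over all genes, library size alone gave 420 calls in place of 2324 for knockout over rescued at 0 h, 1661 in place of 3350 at 2 h, and 589 in place of 1866 and 371 in place of 1271 for the interactions at 2 h against 0 h and 8 h against 2 h. The replicate block for clones ended the call of Spry4 in rescued cells at 8 h against 2 h (0.154, adjusted p = 0.0557 with the block) and changed no other call of the 8 genes. The counts of Spry1, Spred3 and, at 0 h, Phlda1 limit what could be detected for them.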
